A study of Homo sapiens with 7 samples.

Results

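The nuclear-encoded genes of oxidative phosphorylation were followed in RH30, an established cell line of alveolar rhabdomyosarcoma, with and without the Smac mimetic BV6. The genes were taken by symbol alone: NDUFA, NDUFB, NDUFC, NDUFS and NDUFV genes, SDHA to SDHD, the UQCR genes, the main COX isoforms and the ATP5F1, ATP5M and ATP5P genes. The pattern matched 74 of the 57189 genes in the count table, grouped by symbol into 37 of complex I, 4 of complex II, 8 of complex III, 10 of complex IV and 15 of complex V. NDUFA4 is counted with complex I by its symbol, although its protein is known as a subunit of complex IV. The pattern used no expression value, although it was chosen with earlier results of these data known. All 74 genes passed the filter on low counts. RNA of poly(A)-selected, stranded libraries was available for 4 samples of untreated RH30 cells and 3 samples exposed to BV6 at 5 µM over 24 h, all grown in the same medium. The labels give the genotype of both groups as wild type, while the study's methods name a GFP- and luciferase-expressing RH30 line for its experiments, so both groups may share that transgene. Each sample carries a BC label: BC13, BC14 and BC25/27 each name 1 untreated and 1 BV6 sample, and BC11 names an untreated sample only. The sources used here do not say what the label stands for. The study calls the samples biological replicates without naming separate cultures, so p-values measure only the spread between these samples.

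Oxidative phosphorylation passes electrons from NADH and succinate along complexes I to IV of the inner mitochondrial membrane to oxygen, while protons are pumped out of the matrix. Complex V, the ATP synthase, uses the returning protons to make ATP. Most subunits are encoded in the nucleus, made in the cytosol and imported, and they assemble with a small set of core subunits translated from mitochondrial DNA. Their genes are active in nearly every cell type, and many of their promoters are known to carry sites for NRF1, for the ETS factor GABPA and for YY1. BV6 mimics Smac, a mitochondrial protein that binds inhibitors of apoptosis once it is released into the cytosol.

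Total counts ranged from 54070030 to 77220882, and 3 counts, below which no gene was taken as detected, corresponded to 0.0389 to 0.0557 CPM (a gene's counts relative to the normalized total of its library). The lowest count of any member in any sample was 354, far above 3 counts. Counting error was not separated from the other differences between samples. All 4 genes fixed as a check of the BV6 response were called higher by edgeR's quasi-likelihood test, with a log2 fold change of 4.86 for BIRC3 (Benjamini-Hochberg adjusted p = 0.00341) and 2.17 for NFKBIA (adjusted p = 0.0116). All 10 muscle and rhabdomyosarcoma markers were detected in every sample, at a summed 2102 to 3002 CPM in untreated and 1293 to 2357 CPM in BV6 samples. The 8 leukocyte markers summed to 12.9 to 15.5 CPM and 11.3 to 15.4 CPM, and the 9 fibroblast, endothelial and epithelial markers to 62.0 to 88.5 CPM and 47.0 to 77.8 CPM, most of it from PECAM1. These ranges overlap between the groups, and none of the 3 marker lists held a called gene. GC-rich genes had lower levels in the BV6 sample labelled BC14 than in the others, and values without this sample stand beside those of the complexes, the GC ranges and the members it touches most. In untreated BC11, GC-rich genes lay higher, by a median log2 of 0.16 over the untreated mean.

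To compare genes with one another, CPM values were divided by transcript length in kilobases (RPKM). Complex V genes had the highest levels, with a median of 168 RPKM over the 15 genes, followed by complex IV with 135, complex III with 85.6, complex II with 73.9 and complex I with 51.5. The highest level belonged to ATP5F1B, the catalytic beta subunit of ATP synthase, at 356 ± 19.1 RPKM (SD, n = 7, both groups together). ATP5PD, a subunit of the peripheral stalk, followed at 269 ± 12.5 and ATP5F1A, the alpha subunit, at 266 ± 14.4, which lie within each other's SD. UQCRH, the hinge protein of complex III, at 242 ± 11.6 and ATP5MF, a membrane subunit of ATP synthase, at 237 ± 20.7 likewise did not differ beyond their spread. Within complex IV the highest levels were those of COX6B1 (200.1 ± 14.1) and COX7C (189 ± 12.1), and within complex I those of NDUFS5 (178 ± 9.68) and NDUFC2 (129 ± 20.9). SDHC, a membrane anchor of succinate dehydrogenase, stood at 179 ± 6.95 RPKM and its partner SDHA at 43.5 ± 5.48. The lowest level in the set was 4.53 ± 0.354 RPKM for NDUFV3, an accessory subunit whose annotated transcripts are long, with a median of 5200 bases. For 12 members the length of the canonical transcript differs more than 2-fold from the length used here, among them ATP5F1A, SDHC and NDUFC2, so the order of levels depends on the annotation. With canonical lengths, a comparison added after the data had been seen, these 3 genes stood at 96.9 ± 5.27, 63.1 ± 2.44 and 33.4 ± 5.40 RPKM, and the medians were 133 RPKM for complex V, 118 for complex IV, 59.1 for complex II, 47.1 for complex I and 41.2 for complex III. The plot of level by gene shows this order within each complex.

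**Figure D1:**
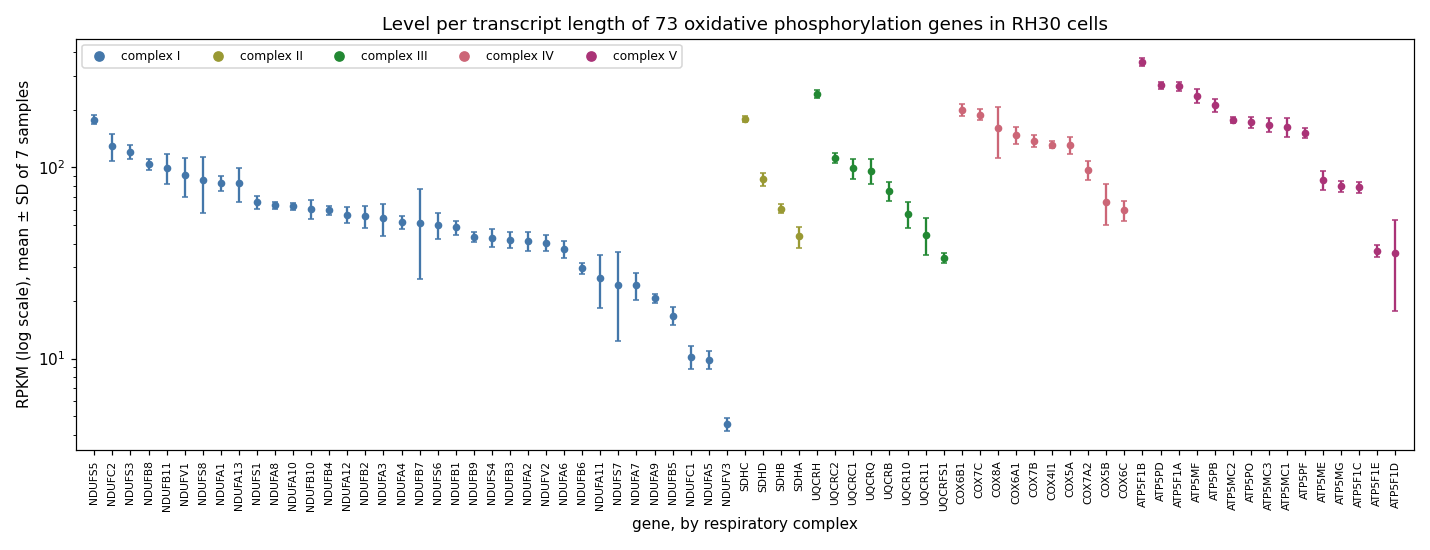
Level per transcript length (RPKM, log scale) of 73 of the 74 genes, grouped by complex and ordered by level, with points for the mean and bars for the SD of all 7 samples. Complex V genes lie highest (median 168 RPKM) and complex I genes lowest (median 51.5 RPKM) with these transcript lengths, and the widest bars are those of NDUFB7, NDUFS7 and ATP5F1D.

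RefSeq promoter windows (GRCh38.p14), from 250 bases before to 50 bases after the annotated start, were available for 61 of the 74 genes, and 4 motifs were searched on both strands. The NRF1-type motif GCATGCGC was found in 14 of the 61 genes (22.95%, against 4.89% of the 15843 protein-coding genes in the table and 3.68% of all 27305 genes). The YY1-type motif AAGATGGC was found in 12 (19.7%, against 4.66% and 3.52%) and the ETS-type motif CCGGAAG in 20 (32.8%, against 16.5% and 12.2%). CCAAT, a common promoter motif, was found in 20 (32.8%, against 42.1% and 39.7%). At least 1 of the first 3 motifs was present in 36 genes (59.0%, against 23.4% and 17.6%). None of these motifs overlaps another in the stretches printed here. The 150 bases before the start are shown for COX5B, COX8A and UQCRQ, the 3 genes called in one of the alternative fits described further on, with NRF1-type and ETS-type matches in capitals. COX5B (chr2:97645912-97646061, plus strand) held an NRF1-type match 136 to 129 bases and an ETS-type match 37 to 31 bases before the start. COX8A (chr11:63974470-63974619, plus strand) held the ETS-type motif in reverse, 18 to 12 bases before the start, and UQCRQ (chr5:132866492-132866641, plus strand) held it 54 to 48 bases before the start.
COX5B: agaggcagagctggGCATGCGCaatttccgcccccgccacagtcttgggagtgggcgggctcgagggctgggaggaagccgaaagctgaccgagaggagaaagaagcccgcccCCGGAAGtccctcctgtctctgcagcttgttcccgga
COX8A: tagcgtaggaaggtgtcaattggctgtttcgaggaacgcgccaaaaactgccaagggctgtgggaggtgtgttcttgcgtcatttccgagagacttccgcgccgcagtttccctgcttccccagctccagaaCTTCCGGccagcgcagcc
UQCRQ: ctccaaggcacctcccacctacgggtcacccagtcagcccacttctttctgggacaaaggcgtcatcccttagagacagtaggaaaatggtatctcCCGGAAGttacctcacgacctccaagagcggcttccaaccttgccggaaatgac
The median log2 fold change with BV6 was -0.06 in the 14 genes with the NRF1-type motif against -0.10 in those without it, -0.07 against -0.09 for the ETS-type and -0.06 against -0.09 for the YY1-type motif, all described without a test.

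Whether BV6 altered the transcripts of the respiratory chain and ATP synthase was then compared between the 4 untreated and 3 treated samples. None of the 74 genes was called by edgeR at a Benjamini-Hochberg adjusted p below 0.05, while 104 of the 23124 genes tested (0.45%) were called. The smallest adjusted p among the members was 0.562, for COX5B. At an unadjusted p below 0.05, 1 member (COX5B) was lower, against 4.26% of all genes tested, and 0 were higher, against 4.13%. DESeq2, limma-voom and limma on log2(CPM + 1) also called 0 members, each with 2 lower at an unadjusted p below 0.05, against 3.11, 4.62 and 4.61% of all genes tested. The count at an unadjusted p was 0 without untreated BC11 (2.66% of all genes tested) and without BV6 BC14 (3.27%), 2 without untreated BC14 (3.06%), 3 without BV6 BC13 (3.78%) and 4 without BV6 BC25/27 (6.42%). In bulk RNA, fewer cells that express a gene and less of its RNA per cell cannot be told apart.

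The fitted log2 fold changes lay close to 0 for most members. Their median was -0.07, against -0.01 for all genes tested and 0.0056 for the 11601 genes tested with a mean level at or above that of the lowest member. The value was below 0 for 57 members (77.0%, against 52.3% of all genes tested and 48.8% of the genes at or above the lowest member's level) and above 0 for 17. The members' transcripts were short, with a median of 687 bases against 2336 for all genes tested. With the correction for transcript length given in the last section, the members' median lay nearer to 0. Spearman's rho between transcript length and log2 fold change was 0.04 over the members and 0.10 over all genes with a known length. Cytosolic ribosomal protein genes and subunits encoded in mitochondrial DNA, with median lengths of 754.5 and 784 bases, had median log2 fold changes of 0.05 and -0.15. The part of length was not tested further. The values ranged from -0.73 for ATP5F1D to 0.19 for COX6C. The median SE was 0.12 on the log2 scale, against 0.21 for all genes tested and 0.14 for the genes at or above the lowest member's level. The 95% interval of the difference lay within 1.5-fold in both directions for 60 of the 74 genes (81.1%, against 42.1% of all genes tested) and within 2-fold for 68 (91.9%, against 69.8%). Among the genes at or above the lowest member's level these shares were 70.9% and 92.5%, so the members' share within 2-fold was near that of genes of their level. Changes of more than 2-fold were thus outside the interval for all but 6 genes, NDUFB7, NDUFS7, NDUFS8, NDUFA11, COX8A and ATP5F1D, each with a lower bound past a 2-fold difference. The groups did not overlap for 2 members, ATP5F1B and ATP5MC3, both with all BV6 samples below all untreated ones (3.89% of all genes tested), and for 0 members in the other direction (4.94%). This count of genes lower without overlap was 8 without untreated BC11 (10.8% of members, against 5.32% of all genes tested) and 5 without untreated BC13 (6.76%, against 6.83%). It was 3 without untreated BC14 (4.05%, against 5.03%) and 2 without untreated BC25/27 (2.70%, against 6.59%). It was 14 without BV6 BC13 (18.9%, against 7.82%), 2 without BV6 BC14 (2.70%, against 6.87%) and 7 without BV6 BC25/27 (9.46%, against 9.87%). In the last case 1 gene lay higher without overlap (1.35%, against 11%).

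**Figure D2:**
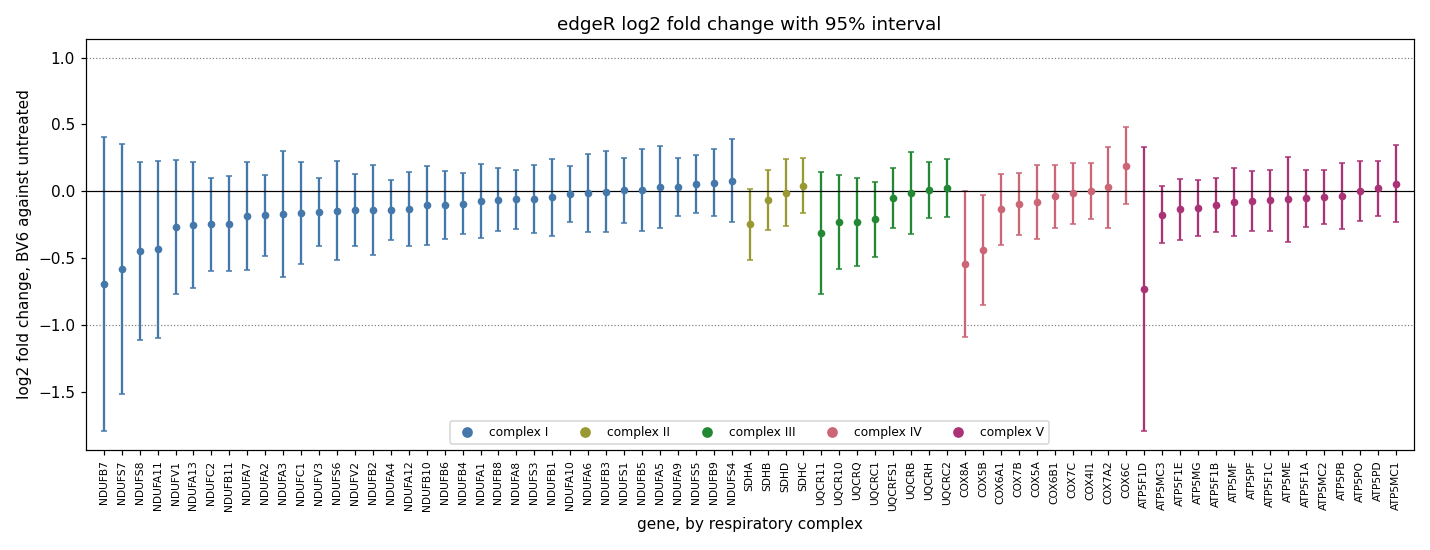
Fitted log2 fold change of BV6 against untreated for 73 of the 74 genes, grouped by complex, with points for the edgeR estimate and bars for its 95% interval. The dotted lines mark a 2-fold difference in either direction, and the intervals of 6 genes reach past the lower line.

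Summed over all members, the level was 6438, 6701, 6334 and 6672 CPM in untreated BC11, BC13, BC14 and BC25/27 and 6337, 5974 and 6116 CPM in BV6 BC13, BC14 and BC25/27. The highest BV6 sample lay just above the lowest untreated one, and the means were 6536 ± 179 CPM (SD, n = 4) and 6142 ± 183 CPM (SD, n = 3), a ratio of 0.940. As a share of all counts, the members took 0.638 to 0.665% in untreated and 0.609 to 0.620% in BV6 samples, and these ranges do not overlap. The ratio of the means was 0.924 for complex I, 0.949 for complex II, 0.939 for complex III, 0.929 for complex IV and 0.953 for complex V. Without BV6 BC14 these ratios were 0.965, 0.947, 0.964, 0.952 and 0.941, and 0.953 over all members. For complex IV the untreated samples summed to 812, 789.5, 763 and 822 CPM and the BV6 samples to 775, 702 and 742 CPM, so the groups overlapped through BV6 BC13. The median log2 fold change was -0.10 for complex I, -0.04 for complex II, -0.13 for complex III, -0.06 for complex IV and -0.07 for complex V. Without BV6 BC14 the medians were -0.05, -0.06, -0.06, -0.03 and -0.09, so complexes I, III and IV lay nearer to 0 and complexes II and V farther from it. No test was applied to these sums and medians.

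**Figure D3:**
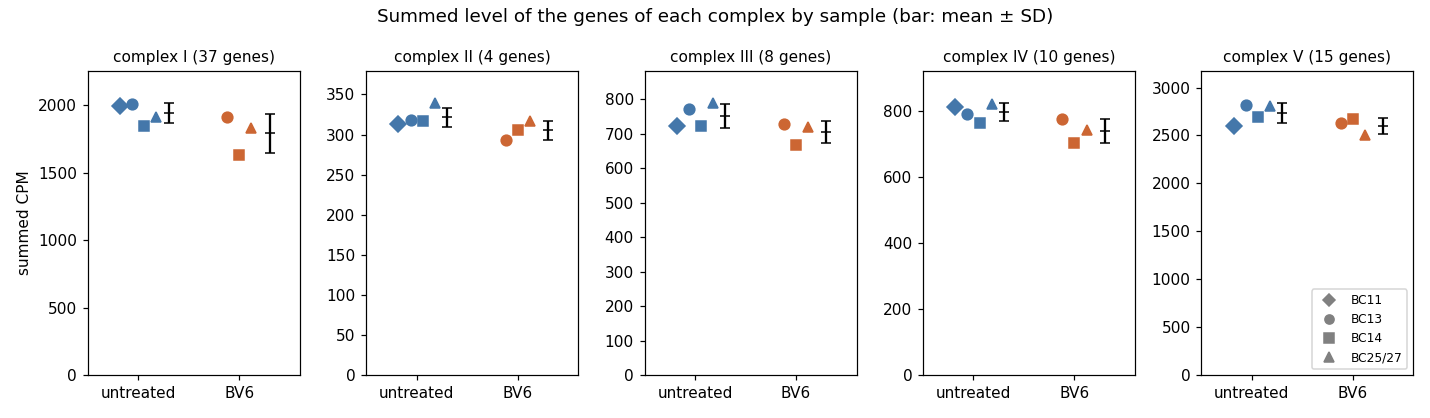
Summed level (CPM) of the genes of each complex in every sample, with symbols for the BC label, blue for untreated and orange for BV6, and the mean ± SD of each group to the right of its points. The BV6 mean lies below the untreated mean in each of the 5 complexes, at 0.924 to 0.953 of it, and the points of the groups overlap in each.

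Complex I takes electrons from NADH. In the N module, which oxidizes NADH, NDUFV1 stood at 179.5 (BC11), 157 (BC13), 132 (BC14) and 127 (BC25/27) CPM in untreated and 142, 77.4 and 152 CPM in BV6 BC13, BC14 and BC25/27. BV6 BC14 was the lowest sample by far, and the other BV6 samples lay within the untreated range. The log2 fold change was -0.27 ± 0.22 (SE, adjusted p = 0.784, edgeR), and -0.01 without BV6 BC14. NDUFS1 and NDUFV2, the other core subunits of this module, had log2 fold changes of 0.0065 ± 0.11 and -0.14 ± 0.12. In the Q module, which passes electrons to ubiquinone, NDUFS3 had a log2 fold change of -0.06 ± 0.11, within 1 SE of 0. NDUFS7 and NDUFS8, which hold iron-sulfur clusters of the same module, varied far more between samples of one group.
NDUFS7 stood at 48.7, 33.8, 18.4 and 19.3 CPM in untreated BC11, BC13, BC14 and BC25/27 and at 23.4, 9.45 and 27.5 CPM in BV6 BC13, BC14 and BC25/27. Untreated BC11 was the highest sample and BV6 BC14 the lowest, and both other BV6 samples lay within the untreated range. Its log2 fold change was -0.58 ± 0.42 (adjusted p = 0.754, edgeR), and -0.24 without BV6 BC14. NDUFS8 had a log2 fold change of -0.44 ± 0.30 (adjusted p = 0.741, edgeR), and -0.14 without BV6 BC14. Among the accessory subunits, NDUFB7 of the membrane arm had the widest range of all members, with 47.9, 39.4, 22.1 and 22.2 CPM in the untreated samples and 25.9, 5.80 and 29.4 CPM in the BV6 samples, an 8.26-fold range. The values of BV6 BC13 and BC25/27 fell between the untreated ones. NDUFB7 had a log2 fold change of -0.69 ± 0.49 (adjusted p = 0.752, edgeR), and -0.24 without BV6 BC14. NDUFA11, another accessory subunit of the membrane arm, had -0.43 ± 0.30, and -0.11 without this sample. NDUFC2 and NDUFB11, with -0.25 ± 0.15 and -0.24 ± 0.16, had the smallest p of complex I, and -0.09 and -0.15 without BV6 BC14. On the side above 0, NDUFS4, NDUFB9, NDUFS5 and NDUFA9 had log2 fold changes of 0.08 ± 0.14, 0.06 ± 0.11, 0.06 ± 0.10 and 0.03 ± 0.10, all within 1 SE of 0. Of the 37 genes, 29 had a value below 0 and 0 were called.

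Complex II, succinate dehydrogenase, is the enzyme that the tricarboxylic acid (TCA) cycle shares with the respiratory chain. SDHA, its flavoprotein (chromosome 5, 218303 to 257082, plus strand), stood at 107, 90.9, 98.7 and 105 CPM in untreated BC11, BC13, BC14 and BC25/27 and at 77.6, 78.5 and 97.5 CPM in BV6 BC13, BC14 and BC25/27. BV6 BC13 and BC14 lay below every untreated sample and BV6 BC25/27 within their range. The log2 fold change was -0.25 ± 0.12 (adjusted p = 0.620, edgeR), and -0.19 without BV6 BC14. Pseudogenes of SDHA with rows of their own in the table carried 50.2% of the level of SDHA, the highest share of any member, so part of its counts is uncertain. The iron-sulfur subunit SDHB had a log2 fold change of -0.06 ± 0.10, and the membrane anchors SDHC and SDHD 0.04 ± 0.09 and -0.01 ± 0.11.

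Complex III carries electrons from ubiquinol to cytochrome c. Its core proteins UQCRC1 and UQCRC2 had log2 fold changes of -0.21 ± 0.13 (adjusted p = 0.711, edgeR) and 0.02 ± 0.10, and the difference between them was not tested. UQCRC1 stood at 169.8, 159.7, 164 and 176 CPM in untreated BC11, BC13, BC14 and BC25/27 and at 154, 117 and 164 CPM in BV6 BC13, BC14 and BC25/27. Only BV6 BC25/27 lay within the untreated range, and BV6 BC14 was far below the rest. Without this sample the log2 fold changes of UQCRC1 and UQCRC2 were -0.07 and -0.02. The Rieske iron-sulfur protein UQCRFS1 had a log2 fold change of -0.05 ± 0.10 and the hinge protein UQCRH 0.0095 ± 0.09. The small subunit UQCRQ stood at 57.6, 67.5, 53.4 and 61.2 CPM in untreated and 59.5, 40.9 and 52.9 CPM in BV6 samples, with BV6 BC13 inside the untreated range, and had a log2 fold change of -0.23 ± 0.15 (adjusted p = 0.729, edgeR), and -0.09 without BV6 BC14. UQCR11, another small subunit, had -0.31 ± 0.20 (adjusted p = 0.736, edgeR), and -0.11 without it.

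Complex IV, cytochrome c oxidase, reduces oxygen, and its nuclear-encoded subunits surround a catalytic core from mitochondrial DNA. COX5B (chromosome 2, 97646062 to 97648383, plus strand), a zinc-binding subunit on the matrix side, had the smallest p of all members. It stood at 61.2, 60.0, 40.3 and 44.1 CPM in untreated BC11, BC13, BC14 and BC25/27 and at 42.0, 31.1 and 40.7 CPM in BV6 BC13, BC14 and BC25/27. Each BV6 sample lay below the untreated sample of its own BC label, while BV6 BC13 and BC25/27 lay above untreated BC14. The log2 fold change was -0.44 ± 0.18 (95% interval -0.85 to -0.03, adjusted p = 0.562, edgeR), and -0.31 without BV6 BC14. COX8A (chromosome 11, 63974620 to 63976543, plus strand), a small subunit of the membrane part, stood at 115, 97.3, 71.4 and 81.2 CPM in untreated and 66.7, 39.6 and 81.6 CPM in BV6 samples. BV6 BC13 and BC14 lay below every untreated sample, and BV6 BC25/27 nearly equalled the untreated sample of the same label, with a log2 ratio of 0.0078. The log2 fold change of COX8A was -0.54 ± 0.24 (adjusted p = 0.596, edgeR), and -0.29 without BV6 BC14. COX4I1, the largest nuclear-encoded subunit, showed steady values, with 105, 104, 100.1 and 108 CPM in untreated and 105, 97.7 and 110.2 CPM in BV6 samples. Its log2 fold change was 0.00029 ± 0.09, with a 95% interval of -0.21 to 0.21. COX5A, which pairs with COX4I1 in the early assembly of the complex, had -0.08 ± 0.12. COX6C had the highest log2 fold change of all members, 0.19 ± 0.13 (adjusted p = 0.741, edgeR), with 32.0, 31.3, 40.4 and 38.2 CPM in untreated and 41.3, 43.1 and 37.3 CPM in BV6 samples. BV6 BC13 and BC14 lay above every untreated sample and BV6 BC25/27 within their range.

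**Figure D4:**
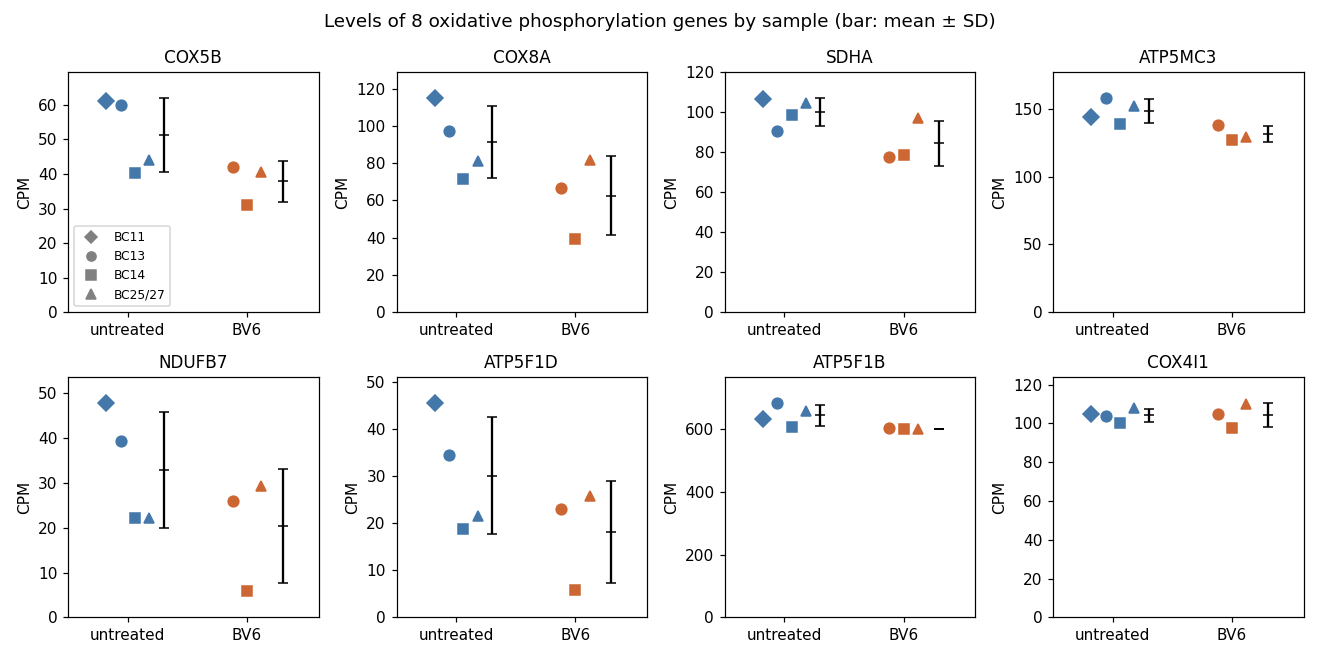
Level (CPM) of 8 genes in every sample, with symbols for the BC label, blue for untreated and orange for BV6, and the mean ± SD of each group to the right of its points. The BV6 samples lie below all untreated samples for ATP5MC3 and ATP5F1B only, and BV6 BC14 is the lowest sample for COX5B, COX8A, NDUFB7 and ATP5F1D.

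Complex V makes ATP in its F1 head, which turns with a ring of c subunits in the membrane. The beta subunit ATP5F1B stood at 633, 685, 607 and 659.5 CPM in untreated BC11, BC13, BC14 and BC25/27 and at 603, 601 and 601 CPM in BV6 BC13, BC14 and BC25/27. All BV6 samples lay below all untreated ones, by a narrow margin at untreated BC14, and the log2 fold change was -0.10 ± 0.09 (adjusted p = 0.789, edgeR). The alpha subunit ATP5F1A overlapped between the groups, with a log2 fold change of -0.05 ± 0.09. ATP5MC1, ATP5MC2 and ATP5MC3 encode the same mature c subunit from separate genes. ATP5MC3 (chromosome 2, 175176258 to 175181710, minus strand) stood at 144, 158, 139 and 152 CPM in untreated and 138, 127 and 129 CPM in BV6 samples, with no overlap between the groups. Its log2 fold change was -0.17 ± 0.09 (adjusted p = 0.679, edgeR). The other c subunit genes had log2 fold changes of 0.06 ± 0.13 (ATP5MC1) and -0.04 ± 0.09 (ATP5MC2), and their groups overlapped. ATP5F1D, the delta subunit of the central stalk, had the lowest log2 fold change of all members, -0.73 ± 0.47 (adjusted p = 0.733, edgeR). It stood at 45.5, 34.5, 18.9 and 21.5 CPM in untreated and 22.9, 5.77 and 25.7 CPM in BV6 samples, so that BV6 BC13 and BC25/27 lay within the untreated range and BV6 BC14 far below it. Without BV6 BC14 the value was -0.30.

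Between samples of the same BC label, 51 members (68.9%, against 50.5% of all genes tested) were lower with BV6 in BC13, 52 (70.3%, against 55.3%) in BC14 and 58 (78.4%, against 49.7%) in BC25/27. The median log2 ratio of the members was -0.04, -0.05 and -0.12 in the 3 labels. The members' median deviation varied between untreated samples with an SD of 0.05. This is the spread of single samples, while each ratio joins 2 samples, so it sets no limit for the 3 medians. Of the 74 genes, 24 were lower in all 3 labels (32.4%, against 17.8% of all genes tested), among them COX5B, SDHA, UQCRC1, UQCRQ, ATP5F1B and ATP5MC3, and 0 were higher in all 3 (15.5%). The labels did not qualify as pairing the samples in the check given in the last section, with a correlation of 0.08 for BC25/27. These counts thus describe samples that share a label, not matched pairs. The lowest log2 ratio was that of NDUFB7 in BC14, -1.93, and the highest that of NDUFS7 in BC25/27, 0.51.

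The GC content of the members' transcripts ran from 34.9 to 69.3%, and the log2 ratios followed it differently in each label. Over the 74 genes, Spearman's rho between GC content and the log2 ratio was -0.26 in BC13, -0.59 in BC14 and 0.69 in BC25/27, against -0.10, -0.51 and 0.29 over all genes with a known GC content. These correlations are across genes of the same pair of libraries, which share depth and preparation and are not independent replicates. In the GC-rich range, 24 members between 53.2 and 69.3% GC, the median log2 fold change was -0.22 and 22 genes were below 0, against a median of -0.15 over the 6342 genes tested in that GC range. Without BV6 BC14 the median of these 24 members was -0.06 with 18 below 0, against -0.0055 over the 6511 genes then tested in that range. In the low and middle ranges of 25 genes each, the members' medians were -0.03 and -0.06, against 0.07 and 0.02 over all genes in those ranges, and -0.08 and -0.06 against 0.03 and 0.01 without BV6 BC14. The GC-rich members deviated from the untreated mean by a median log2 of -0.53 in BV6 BC14, against -0.36 for all genes of that range, and by -0.02 and -0.05 in BV6 BC13 and BC25/27. In untreated BC11 and BC13 these members deviated by 0.09 and 0.10, against 0.16 and -0.0011 for all genes of that range. In the low range, members and all genes each deviated by -0.12 in untreated BC11. With all samples the members' fold changes were thus lowest in the GC-rich range, while without BV6 BC14 the medians of the 3 ranges were alike. The part of GC content in the fold changes was not tested beyond the following fits. With a correction of each library for GC content, 0 members were called and 5 were lower at an unadjusted p below 0.05 (6.76%, against 5.58% of all genes tested). With the same correction and the BC label as a block, 3 of the 74 members were called lower, against 3.79% of the 17460 genes tested in that direction, COX8A at -0.40 (adjusted p = 0.0152, edgeR), COX5B at -0.33 (adjusted p = 0.0342) and UQCRQ at -0.25 (adjusted p = 0.0351). This share of called members was near that of all genes. At an unadjusted p below 0.05 in the same fit, 20 members were lower (27.0%, against 11.4% of all genes tested) and 0 higher (against 9.42%). Without BV6 BC14 the median log2 fold change of the members was -0.06, with 59 of the 74 below 0, and without both BC14 samples -0.07.

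**Figure D5:**
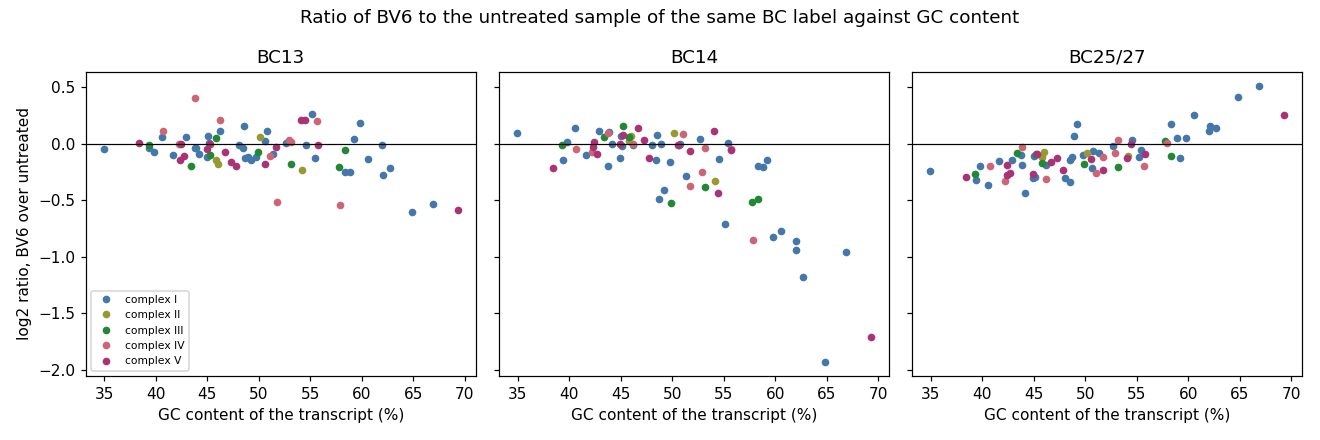
Log2 ratio of each member's level in the BV6 sample to that in the untreated sample of the same BC label, against the GC content of its transcripts (%), with points coloured by complex. GC-rich members lie below 0 in BC14 (rho -0.59) and above the others in BC25/27 (rho 0.69), and the slope in BC13 is slight (rho -0.26).

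How reads on more than 1 gene were counted is not given in the sources used here. Exons of 42 members overlap another annotated gene, 25 of them on the same strand and 28 on the opposite one. Pseudogenes named after 44 of the members have 158 rows in the table, and their summed level was above 10% of the member's level for 5 genes, SDHA (50.2%), COX6A1 (34.9%), UQCRFS1 (22.0%), NDUFV2 (19.4%) and SDHD (11.4%), with a median of 0.078% over the 44. These shares do not measure how many reads were assigned to the wrong gene, which was not tested, so the counts of these 5 genes are uncertain to an unknown extent.

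The genes that build, run and feed the same machinery gave similarly small values. Of the 13 subunits encoded in mitochondrial DNA, 12 had a log2 fold change below 0, with a median of -0.15, and 0 were called. MT-ND3, a membrane subunit of complex I, was the 1 gene lower at an unadjusted p below 0.05 (7.69% of the list, against 4.26% of all genes tested). It was also the 1 gene lower without overlap between the groups (7.69%, against 3.89%). Its levels were 404, 365, 431 and 392 CPM in untreated and 345, 347 and 268 CPM in BV6 samples. The log2 fold change of MT-ND3 was -0.31 ± 0.12 (adjusted p = 0.515, edgeR). MT-CO1, the catalytic subunit of complex IV and the highest of the list, had -0.06 ± 0.17. Of the 57 assembly factors, 30 were below 0 (median -0.02) and 0 were called, with the smallest p for TMEM126B, a complex I assembly factor (0.28 ± 0.14), and ATPAF2, which assembles the F1 head (-0.21 ± 0.11). ATPAF2 was the 1 assembly factor lower without overlap (1.75%, against 3.89% of all genes tested). Of 14 further subunits and tissue isoforms, 9 were tested, with a median of -0.0060 and 0 called. Among the 5 that did not pass the filter, COX7B2 had 0 counts in every sample, which allows up to 0.0389 to 0.0557 CPM, and COX6A2, the muscle form of COX6A1, had at most 4 counts in any sample.
Regulators of these genes were also not called. Of 15 such genes 14 were tested, 10 had a log2 fold change above 0, and the median was 0.09. NRF1 had -0.0036 ± 0.11, GABPA 0.0022 ± 0.10 and YY1, the most abundant of the list, 0.13 ± 0.09. YY1 stood at 164 to 171 CPM in untreated and 178 to 190 CPM in BV6 samples, with no overlap between the groups. It was the 1 gene of the 14 higher without overlap (7.14%, against 4.94% of all genes tested). Of the 20 genes of the TCA cycle and pyruvate entry, 13 were below 0 (median -0.04) and 0 were called. For comparison, 0 of 78 cytosolic ribosomal protein genes (median 0.05, 27 below 0) and 0 of 33 proteasome genes (median -0.01, 18 below 0) were called. Of the 10 muscle and rhabdomyosarcoma markers, 8 were below 0 with a median of -0.35. FGFR4 (-0.73 ± 0.32) and CHRNA1 (-0.27 ± 0.11) were the 2 lower at an unadjusted p below 0.05, against 4.26% of all genes tested. The markers' transcripts had a median GC content of 59.5%. Their median log2 ratio was -0.23 in BC13, -0.55 in BC14 and -0.0084 in BC25/27, where 5 of the 10 were lower. By their median fold change these marker genes moved in the same direction as the members, and their part in the members' values was not tested.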

How the data were processed

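The authors prepared stranded poly(A)-selected libraries, read both ends of each fragment, aligned to GRCh38 with STAR 2.6.1d (per the labels) and counted per Ensembl gene over the union of its isoforms. They deposited raw counts without normalization. The counting program, its use of strand and its handling of read mates and shared reads are not given in the sources used here. From the counts, edgeR 4.0.16 in R 4.3.3 (filterByExpr with a minimum count of 10, TMM, glmQLFit and glmQLFTest, condition only) gave log2 fold changes and p-values, adjusted by Benjamini-Hochberg across all 23124 genes kept by the filter. CPM used TMM-normalized totals. RPKM and GC content used the median over the basic protein-coding transcripts of GENCODE release 44 (all 74 members matched by symbol). The members and gene lists were chosen with earlier results of these data known. Members named in the text are those called in the fit without or with the BC block, the 10 smallest p in each direction, the 2 highest and 1 lowest RPKM of each complex, and the core subunits. For 1 member and 1 gene of the other lists, values that the rule would name are not reported here. Other members (NDUFB7, NDUFA4, NDUFA11, ATP5MF, ATP5PB, COX6A1) were named after their values were seen, as were genes of the other lists beyond the most abundant one and the 2 with the smallest p. Alternatives were DESeq2 1.42.0, limma 3.58.1 (voom, and log2(CPM + 1)), RLE factors, total counts, other filters, the BC label as a replicate block, loess corrections (span 0.5) for GC content and transcript length, and leaving out each sample. The fits were checked on simulated counts. Intervals and floors cover the spread between samples or counting error only.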

Additional observations from a re-analysis of the deposited data

Results flagged for a closer look

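In the 4 untreated samples, 3 members had 1 sample far from the other 3, by the ratio of its gap to the nearest sample to the range of the group. In each case it was untreated BC11, and it was the lowest. ATP5F1A stood at 527 CPM in that sample against 576 to 582 CPM in the others (ratio 0.895), ATP5PB, the b subunit of the peripheral stalk, at 317 against 363 to 366 CPM (ratio 0.943), and SDHD at 66.0 against 80.4 to 81.3 CPM (ratio 0.943). ATP5PB and SDHD belong to the low GC range, in which all genes tested deviated by a median log2 of -0.12 in untreated BC11. The part of GC content in these values was not tested. Chance alone places about 1 in 20 groups of this size past the critical ratio, and the 3 members flagged among 74 do not exceed that share. The share over all genes tested was not computed. The groups of 3 BV6 samples are too small for this comparison.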

How the results depend on the processing

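No member was called under DESeq2, limma-voom, limma on log2(CPM + 1), RLE factors, total counts, either other filter, the GC or the length correction alone, or with any 1 sample left out. The median log2 fold change stayed below 0 in all of these, at -0.11 to -0.06 when 1 sample was left out, and was -0.0077 with the length correction. The members lower at an unadjusted p numbered 1 in the reported fit, 2 with DESeq2, RLE factors, total counts, at least 10 counts in every sample, limma-voom and limma on log2(CPM + 1) (3.11 to 4.69% of all genes tested), 3 with no filter (3.92%), 5 with the GC correction (5.58%), 0 with the length correction (4.07%) and 0 to 4 with 1 sample left out (2.66 to 6.42%). RLE factors gave 4 members lower without overlap (4.23% of all genes tested), and leaving out 1 sample gave 2 to 14 lower (5.03 to 9.87%) and 0 to 1 higher (5.67 to 11%), in part because fewer samples overlap less often. The BC numbers did not qualify as pairing the samples: the correlation of deviations was 0.46 for BC13, 0.44 for BC14 and 0.08 for BC25/27, where BV6 correlated best with untreated BC11 (0.28). With the replicate block, 0 members were called (0.943% of all genes tested), 4 were lower at an unadjusted p (6.43%) and the median was -0.10. Added after the data had been seen, the 3 complete pairs with the replicate block gave 5 lower at an unadjusted p (6.67%). The GC correction with the replicate block called 3 members and put 20 lower at an unadjusted p (27.0%, against 11.4% of all genes tested). The length correction with the replicate block called 1, ATP5F1D at -0.59 (adjusted p = 0.0367, edgeR), against 2.42% of all genes tested in that direction, and put 4 lower at an unadjusted p (8.06%). The cause of these shifts was not tested.

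Of 760 log2 fold changes of the 38 members chosen by rule under other settings, 69 changed sign, in 14 genes, all within 1 SE of 0 in the reported fit. With the replicate block they were ATP5PD -0.0058, NDUFS1 -0.044, UQCRC2 -0.013 and UQCRH -0.020, and with the complete pairs and the block ATP5PD -0.0023, NDUFS1 -0.041, UQCRC2 -0.0093 and UQCRH -0.016. DESeq2 gave COX4I1 -0.016, NDUFS1 -0.0091 and UQCRH -0.0064, and RLE factors COX4I1 -0.014, NDUFS1 -0.0066 and UQCRH -0.0039. Using no filter gave COX4I1 -0.0098 and NDUFS1 -0.00054, limma-voom COX4I1 -0.0017 and limma on log2(CPM + 1) COX4I1 -0.00088. The GC correction gave ATP5MC2 0.025, ATP5PD -0.027, COX6B1 0.028, NDUFA9 -0.018, NDUFS1 -0.050, NDUFS3 0.0034, UQCRC2 -0.027 and UQCRH -0.035, and with the block added ATP5PD -0.024, COX6B1 0.018, NDUFA9 -0.0089, NDUFS1 -0.066, NDUFS4 -0.016, UQCRC2 -0.031 and UQCRH -0.037. The length correction gave ATP5MC2 0.024, COX6B1 0.039, COX7C 0.061, NDUFS3 0.018, SDHB 0.0035 and SDHD 0.060, and with the block added ATP5MC2 0.0067, COX6B1 0.071, COX7C 0.033, NDUFA9 -0.0026, NDUFS1 -0.026 and NDUFS3 0.022. With 1 sample left out the ranges were -0.080 to 0.15 for ATP5MC1, -0.024 to 0.055 for ATP5PD, -0.042 to 0.050 for COX4I1, -0.10 to 0.011 for COX6B1, -0.054 to 0.032 for COX7C, -0.010 to 0.082 for NDUFA9, -0.050 to 0.068 for NDUFS1, -0.10 to 0.0079 for NDUFS3, -0.073 to 0.032 for SDHD, -0.015 to 0.059 for UQCRC2 and -0.016 to 0.050 for UQCRH. Each member had at least 354 counts in every sample, and the parts of depth and of other spread between samples in the SE were not separated.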
